A study of Homo sapiens with 12 samples.

Results

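The genes described here make up the machinery of the endoplasmic reticulum (ER) that takes in, folds, glycosylates and disposes of secretory and membrane proteins, together with the sensors that adjust it. The set holds 46 genes, chosen by symbol from a list of known roles and not by how they moved: 4 stress sensors, 15 chaperones and folding enzymes, 8 genes of ER-associated degradation (ERAD), 10 genes of the translocon, 4 of signal peptidase and 5 of the oligosaccharyltransferase, the enzyme of N-glycosylation. All 46 had an entry among the 20318 gene entries of the deposited table, and all 46 were among the 12721 that passed the filter on low values. HYOU1 and CANX each had 2 entries, of which the one with the highest mean was used, and their levels are uncertain because reads could be divided between the entries.

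The cells were Z138, a mantle cell lymphoma line of B cell origin, labelled wild type and grown in RPMI-1640 medium with serum. They received either AU-15330 at 0.5 µM or the solvent DMSO and were harvested after 8 h or 24 h. AU-15330 is a PROTAC, a molecule that brings a ubiquitin ligase to its targets, here the BAF chromatin remodelling ATPases SMARCA2 and SMARCA4 and the subunit PBRM1, so that the proteins are degraded. The labels name 3 replicates in each of 4 groups but give DMSO 8 h replicates 2 and 3 the same column, so 11 libraries were analysed and DMSO 8 h had 2. Loss of the target proteins is not measured by RNA and was not checked here. All groups share the line and genotype, and each time point is a batch of its own in the labels, so time and batch cannot be told apart. The labels do not say whether replicates came from separate cultures, and p-values then measure only the spread between these samples. Estimated total counts were 50741267 to 67580769 per library.

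In the unfolded protein response, ER membrane proteins sense unfolded protein in the lumen and pass the signal to the nucleus. IRE1, encoded by ERN1, splices the mRNA of the transcription factor XBP1, PERK, encoded by EIF2AK3, slows translation and raises ATF4, and ATF6 is cut in the Golgi to free a transcription factor. B cells that become antibody-secreting plasma cells expand this machinery, and XBP1 is known for driving that expansion.

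Levels below are normalised counts recovered from the deposited log2 values, and a log2 change is the difference of log2(normalised count + 60) between groups, given with its standard error (SE). A gene is said to rise or fall where the Benjamini-Hochberg adjusted p of limma, fitted over all 12721 genes and 11 libraries, was under 0.05. In bulk RNA, fewer cells of a type and less RNA per cell cannot be told apart.

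After 8 h of AU-15330, 20 of the 46 genes fell (43.5%), 5 rose (10.9%) and 21 did not pass the test. Over all 12721 genes 21.4% fell and 22.9% rose, and among the 7624 genes at or above the mean level of the lowest of the 46, 20.3% fell and 29.7% rose. The median log2 change of the set was -0.10, against 0.02 for all genes tested. Of the genes that fell, 5 fell by at least 1.5-fold (10.9% of the set, against 9.12% of all genes): ERN1, CREB3L2, HSPA5, SYVN1 and EDEM1. Among the 7624 genes that share was 5.98%. No gene of the set rose by as much (3.93% of all genes, and 3% of the 7624). After 24 h, 29 genes fell (63.0%), 2 rose (4.35%) and 15 did not pass, against 26.2% and 24.7% over all genes and 28.3% and 26.1% among the 7624. The median was then -0.29, against 0.01 for all genes. Falls of at least 1.5-fold numbered 8 (17.4%, against 9.72% of all genes and 7.11% of the 7624), in ERN1, CREB3L2, DNAJB9, CANX, SYVN1, EDEM1, EDEM3 and SEC61B, and both genes that rose, EIF2AK3 and SEC62, rose by at least 1.5-fold (4.35%, against 5.9% of all genes and 3.41% of the 7624).

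**Figure D1:**
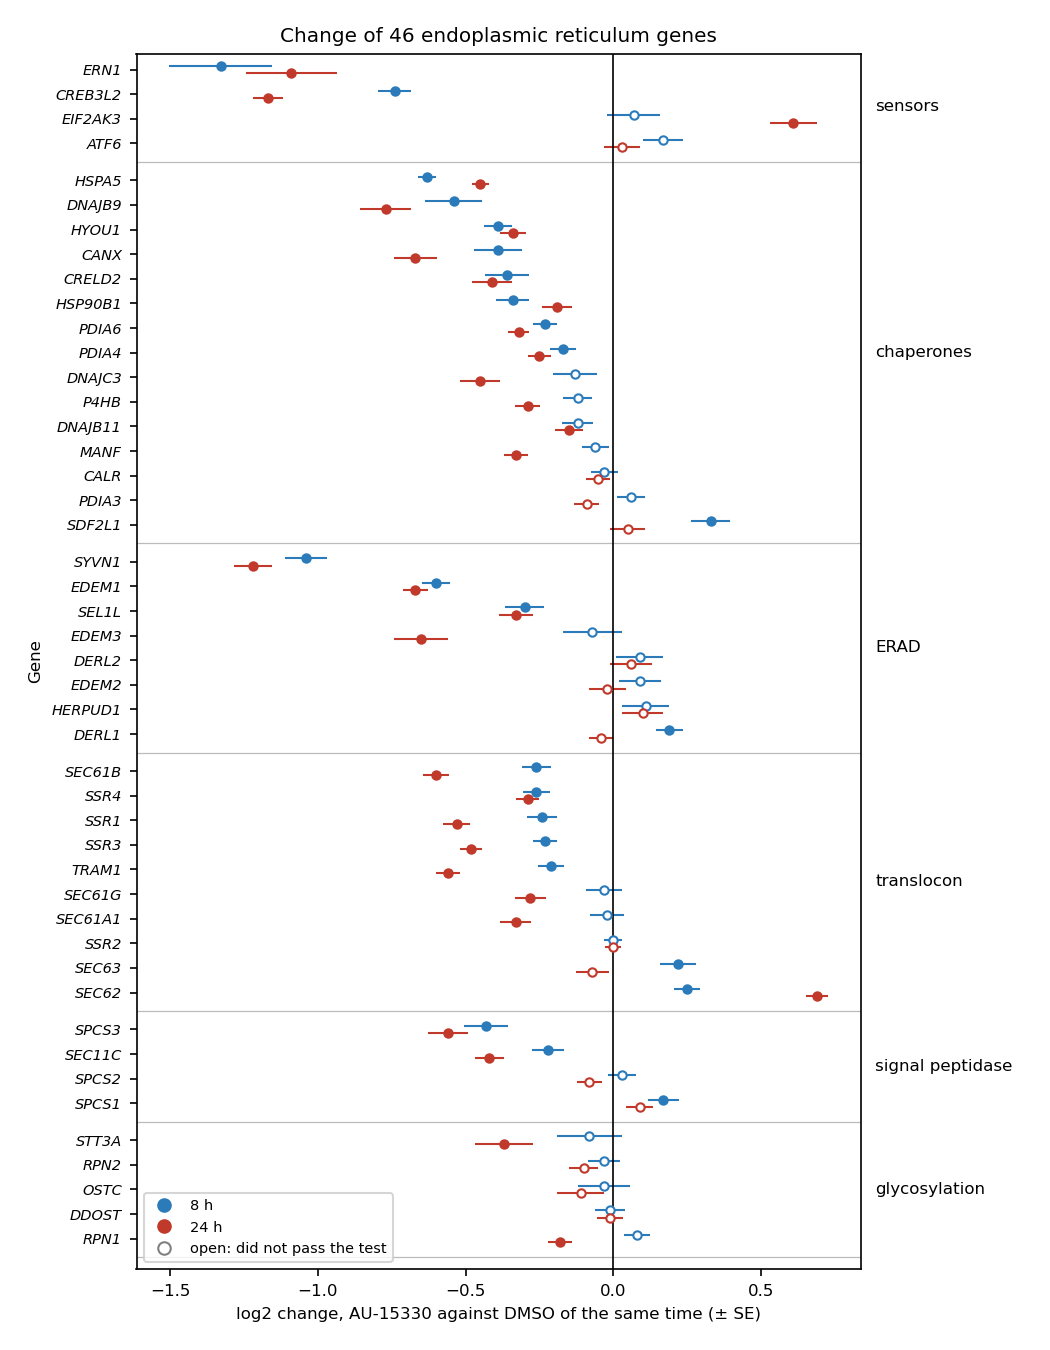
Log2 change (± SE) of each of the 46 genes in AU-15330 against DMSO of the same time, by role; blue points are 8 h, red points 24 h, and open points did not pass the test. The points furthest to the left, from -1.33 to -1.04, are those of ERN1 and SYVN1 and the 24 h point of CREB3L2, and the 2 red points furthest to the right are SEC62 (0.69) and EIF2AK3 (0.61).

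Several of the chaperone genes carry the ER stress response element (ERSE), the sequence through which ATF6 and XBP1 act on chaperone promoters together with the CCAAT-binding factor NF-Y. The element was first defined on such promoters, so its presence in them is background and no finding of these data. It is shown here because genes that carry it moved in different ways. RefSeq promoter windows (GRCh38.p14, from 250 bases before to 50 bases after a transcript start) were matched for 41 of the 46 genes, with 51 windows between them. PDIA3, DERL1, TRAM1, SPCS1 and RPN1 were not matched. Searched on both strands, the ERSE letters (CCAAT, then 9 bases of any kind, then CCACG) were present in 8 of the 51 windows (15.7%) and in 0.0769% of all 35116 windows. The related ERSE-II letters (ATTGG, then 1 base of any kind, then CCACG) were present in 3 of the 51 (5.88%) and in 0.0541% of all windows. The ERSE contains a CCAAT box, which by itself was present in 72.5% of the 51 windows and 34.6% of all.

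The stretches that follow are the bases before the RefSeq start, 5′ to 3′ on the gene's strand, that lie in no gene of GENCODE 29. Capitals mark an ERSE in HSPA5 (chr9:125241344-125241593, minus strand) and CALR (chr19:12938359-12938577, plus strand), and an ERSE-II in HYOU1 (chr11:119057206-119057455, minus strand), SDF2L1 (chr22:21642052-21642260, plus strand) and HERPUD1 (chr16:56931892-56932047, plus strand). In HYOU1 the first capitals also hold the letters TGACGTGG, the core of the XBP1-binding element UPRE, which overlap the ERSE-II, and in HERPUD1 the first capitals are TTGCATCA, letters bound by ATF4 with C/EBP factors.
HSPA5: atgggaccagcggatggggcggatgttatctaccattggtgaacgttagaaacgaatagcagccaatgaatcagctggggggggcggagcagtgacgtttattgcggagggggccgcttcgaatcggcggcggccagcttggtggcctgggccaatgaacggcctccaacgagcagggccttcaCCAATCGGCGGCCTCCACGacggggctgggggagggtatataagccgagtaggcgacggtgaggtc
HYOU1: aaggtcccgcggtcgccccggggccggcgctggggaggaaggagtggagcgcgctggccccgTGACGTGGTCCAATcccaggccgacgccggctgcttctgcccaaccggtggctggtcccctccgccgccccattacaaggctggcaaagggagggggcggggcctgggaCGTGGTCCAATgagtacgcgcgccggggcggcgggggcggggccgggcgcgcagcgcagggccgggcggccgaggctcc
CALR: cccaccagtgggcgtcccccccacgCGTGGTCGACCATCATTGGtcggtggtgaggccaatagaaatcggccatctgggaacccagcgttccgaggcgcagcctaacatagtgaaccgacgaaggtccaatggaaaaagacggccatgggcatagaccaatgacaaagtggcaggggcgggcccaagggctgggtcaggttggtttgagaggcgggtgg
SDF2L1: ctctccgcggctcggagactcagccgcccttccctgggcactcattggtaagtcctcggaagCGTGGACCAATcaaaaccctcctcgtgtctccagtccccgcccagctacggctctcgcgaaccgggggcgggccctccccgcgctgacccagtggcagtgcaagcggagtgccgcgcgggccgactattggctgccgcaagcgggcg
HERPUD1: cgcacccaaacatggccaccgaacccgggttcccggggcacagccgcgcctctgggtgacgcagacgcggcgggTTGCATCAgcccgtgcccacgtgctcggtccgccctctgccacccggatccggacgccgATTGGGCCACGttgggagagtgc

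The other ERSE matches are given as the 19 letters of the element alone, read on the gene's strand, since their windows lie within annotated genes. HSP90B1 held 2, at chr12:103930216-103930234 and chr12:103930321-103930339, CRELD2 1 at chr22:49918554-49918572, PDIA6 1 at chr2:10812853-10812871 on the minus strand, and CANX 1 at chr5:179698778-179698796 that fell in 3 of its windows.
HSP90B1, first: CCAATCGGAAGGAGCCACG
HSP90B1, second: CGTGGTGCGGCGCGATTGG
CRELD2: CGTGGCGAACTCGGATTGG
PDIA6: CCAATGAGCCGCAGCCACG
CANX: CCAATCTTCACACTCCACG

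Of the 9 genes with an ERSE or ERSE-II, 6 fell at 8 h (HSPA5, HYOU1, CANX, CRELD2, HSP90B1 and PDIA6), SDF2L1 rose, and CALR and HERPUD1 did not pass the test. The same 6 fell at 24 h and the other 3 did not pass. Their median log2 change was -0.34 at 8 h and -0.32 at 24 h. Among the 32 matched genes without either element, 13 fell and 2 rose at 8 h (40.6% and 6.25%, median -0.10). At 24 h 21 fell and 2 rose (65.6% and 6.25%, median -0.31). Of the 9 with an element 66.7% fell at each time, and 11.1% rose at 8 h. Over all genes 21.4% fell and 22.9% rose at 8 h, and 26.2% fell and 24.7% rose at 24 h. Since 8 of the 9 were chaperones, element and role were not separated, and the difference was not tested. The UPRE core was also present in windows of SEC62, SSR3 and SSR4 (0.729% of all windows), and SEC62 rose while SSR3 and SSR4 fell. A match of letters is a description of the window and does not show that a factor binds there.

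**Figure D2:**
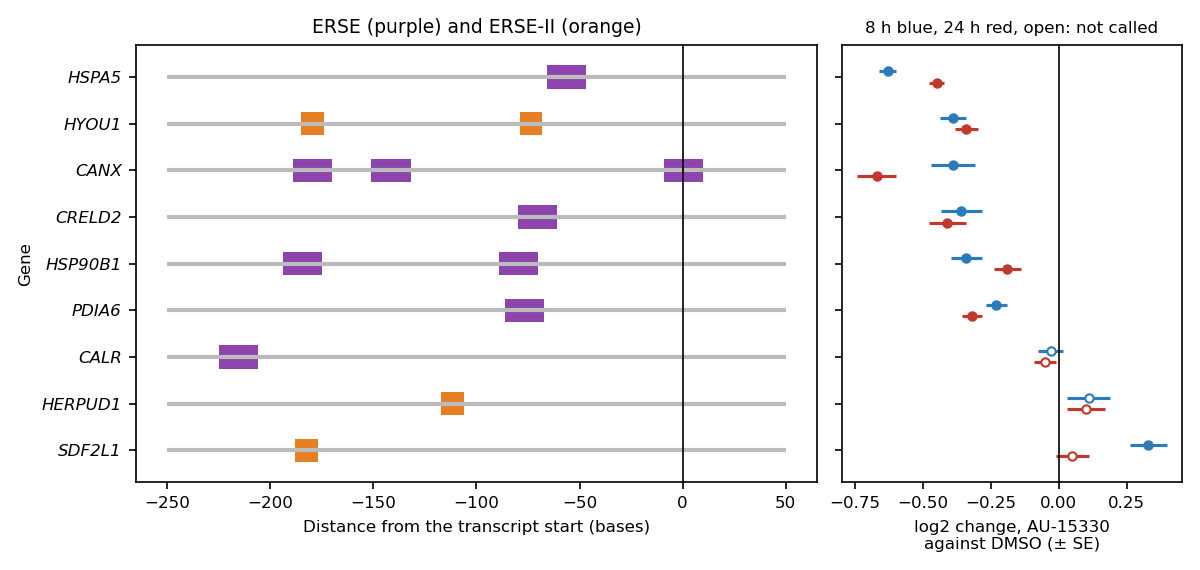
Left, position of each ERSE (purple) and ERSE-II (orange) in bases from the RefSeq transcript start, with every window of a gene drawn on 1 line; right, log2 change (± SE) of the same gene at 8 h (blue) and 24 h (red), open where it did not pass the test. After 8 h these genes run from HSPA5, at -0.63, to SDF2L1, at 0.33.

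Among the 4 sensors, ERN1 and CREB3L2 fell at both times, EIF2AK3 rose at 24 h, and ATF6 did not pass the test at either. ERN1 (chr17:64039142-64130819) encodes IRE1, the kinase and RNase that splices XBP1 mRNA. It stood at 6891 and 4800 normalised counts in the DMSO libraries of 8 h and at 2299, 2556 and 1935 in the treated ones. At 24 h DMSO gave 3903, 4716 and 3199 and AU-15330 gave 1846, 1673 and 1866. Every treated library lay below every DMSO library of its time, although the DMSO libraries spread widely. The log2 change was -1.33 ± 0.173 at 8 h (limma adjusted p = 0.000108) and -1.09 ± 0.155 at 24 h (adjusted p = 0.000286), 2.52-fold and 2.13-fold lower.

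CREB3L2 (chr7:137874979-138002067) encodes a membrane-bound transcription factor of the ER that, like ATF6, is freed by cleavage in the Golgi. Its DMSO libraries held 4778 and 4417 normalised counts at 8 h and 6417, 6714 and 6548 at 24 h. The treated libraries held 2746, 2732 and 2685 at 8 h and 2727, 2835 and 3077 at 24 h. The treated level was thus much alike at both times while the DMSO level was higher at 24 h, and no treated library reached a DMSO library. CREB3L2 changed by -0.74 ± 0.0561 at 8 h and by -1.17 ± 0.0502 at 24 h (limma adjusted p = 1.64e-06 and 5.68e-09), and the change at 24 h was larger by -0.43 ± 0.0753 (adjusted p = 0.00148).

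EIF2AK3 (chr2:88556741-88627576) encodes PERK, the kinase that phosphorylates the translation factor eIF2α. After 8 h it stood at 2636 and 2255 normalised counts with DMSO and at 2497, 2350 and 2885 with AU-15330, and these ranges overlapped. After 24 h it stood at 3534, 3260 and 3266 with DMSO and at 5059, 5426 and 4923 with AU-15330, where all treated libraries were higher. The log2 change was 0.07 ± 0.0896 at 8 h (limma adjusted p = 0.562) and 0.61 ± 0.0801 at 24 h (adjusted p = 3.56e-05), a difference of 0.53 ± 0.12 (adjusted p = 0.00649).

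ATF6 (chr1:161766294-161964070) gave 4786 and 4246 normalised counts with DMSO and 5109, 5159 and 4993 with AU-15330 at 8 h, so the treated libraries lay above both DMSO libraries by a small margin. At 24 h the values were 5566, 4959 and 5253 against 5062, 5308 and 5725, and they overlapped. The log2 changes of 0.17 ± 0.0674 and 0.03 ± 0.0602 did not pass (limma adjusted p = 0.0624 and 0.72). Without DMSO 8 h replicate 1 the 8 h change was 0.26 and passed (adjusted p = 0.0303), and without AU-15330 24 h replicate 3 it was 0.17 and passed (adjusted p = 0.0454).

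**Figure D3:**
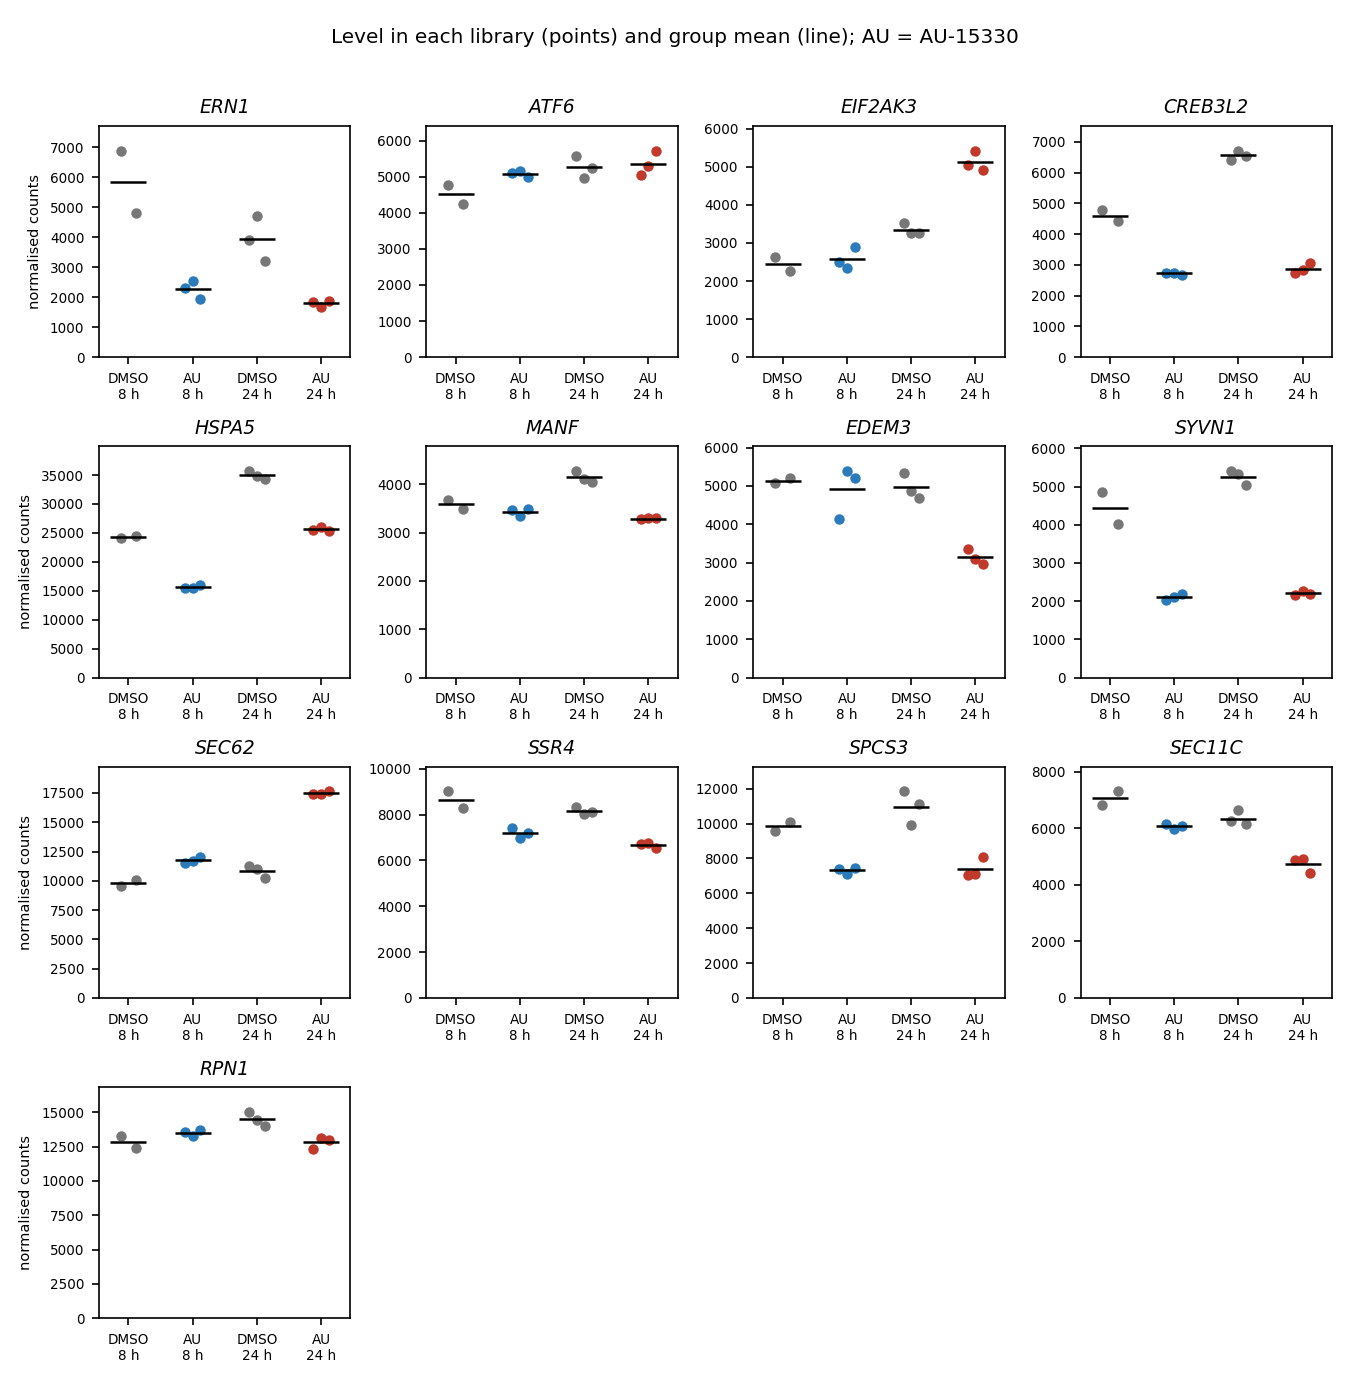
Normalised counts of 13 genes in each library (points) with the group mean (line), by group; AU stands for AU-15330 and every axis starts at 0. In ERN1, CREB3L2, HSPA5 and SYVN1 the treated points lie below the DMSO points of the same time at both times, and in SEC62 they lie above them.

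Of the 15 chaperones and folding enzymes, 8 fell and 1 rose at 8 h (53.3% and 6.67%, against 21.4% and 22.9% of all genes, median -0.17). At 24 h 12 fell and none rose (80.0% fell, against 26.2% of all genes, of which 24.7% rose, median -0.32). At an unadjusted limma p under 0.05 there were 13 at 24 h, all 13 lower. HSPA5 (chr9:125234853-125241330) encodes BiP, the main HSP70 chaperone of the ER lumen, which also binds the sensors. With DMSO it stood at 24096 and 24468 normalised counts at 8 h and at 35692, 34913 and 34327 at 24 h. With AU-15330 it stood at 15407, 15513 and 16048 at 8 h and at 25555, 25949 and 25368 at 24 h. Treated libraries lay well below the DMSO libraries at each time, and libraries of a group lay close together. HSPA5 changed by -0.63 ± 0.0313 at 8 h (limma adjusted p = 7.32e-08), which is 35.4% lower, and by -0.45 ± 0.028 at 24 h (adjusted p = 1.58e-07), which is 26.7% lower. The effect at 24 h was smaller, by 0.18 ± 0.0419 (adjusted p = 0.0217). That difference did not pass without the second DMSO 8 h library, DMSO 24 h replicate 3 or AU-15330 24 h replicate 2, where it was 0.17 each time (adjusted p = 0.0689, 0.0559 and 0.0554).

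MANF (chr3:51385047-51389397), a secreted ER stress protein that binds BiP, had the smallest p among the chaperones for the difference between the times. It stood at 3673 and 3492 normalised counts with DMSO and at 3459, 3343 and 3498 with AU-15330 at 8 h. After 24 h the values were 4273, 4117 and 4038 against 3276, 3295 and 3294. The groups overlapped slightly at 8 h and stood apart at 24 h. Its log2 changes were -0.06 ± 0.0447 (limma adjusted p = 0.307) and -0.33 ± 0.04 (adjusted p = 3.94e-05), and the difference was -0.27 ± 0.06 (adjusted p = 0.0111).

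The cofactors of BiP differed: DNAJB9 and HYOU1 fell at both times, DNAJC3 and DNAJB11 at 24 h, and SDF2L1 rose at 8 h. DNAJB9, a J-domain protein that restrains IRE1 and is itself a target of XBP1, changed by -0.54 ± 0.0966 at 8 h and -0.77 ± 0.0864 at 24 h. HYOU1, a large HSP70 relative that releases nucleotide from BiP, changed by -0.39 ± 0.0484 and -0.34 ± 0.0433, and gave the same calls with its 2 entries summed. DNAJC3, a J-domain protein that inhibits PERK, did not pass at 8 h (-0.13 ± 0.0753) and fell at 24 h (-0.45 ± 0.0674). DNAJB11, which brings unfolded clients to BiP, did not pass at 8 h (-0.12 ± 0.0522) and fell by 0.15 ± 0.0467 at 24 h, a call that was lost without DMSO 24 h replicate 1 or 2 or AU-15330 24 h replicate 1. SDF2L1, which works with BiP and DNAJB11, rose at 8 h, from a mean of 985 ± 68.8 (SD, n = 2) to 1254 ± 51.2 (SD, n = 3) normalised counts (0.33 ± 0.0667, limma adjusted p = 0.00197), and did not pass at 24 h (0.05 ± 0.0596).

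The lectin chaperones parted. CANX, the membrane-bound calnexin, changed by -0.39 ± 0.0802 at 8 h and -0.67 ± 0.0718 at 24 h, while CALR, its soluble relative calreticulin, did not pass at either time (-0.03 ± 0.0452 and -0.05 ± 0.0404). PDIA3, the disulfide isomerase that works with both lectins, did not pass either (0.06 ± 0.0466 and -0.09 ± 0.0417). CANX kept both calls when its entry on the primary assembly or the sum of its entries was used.

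Among the other disulfide isomerases, which form and rearrange disulfide bonds, PDIA6 and PDIA4 fell at both times and P4HB fell at 24 h. PDIA6 changed by -0.23 ± 0.0397 and -0.32 ± 0.0355 and PDIA4 by -0.17 ± 0.0434 and -0.25 ± 0.0388, and the 8 h call of PDIA4 was lost without the second DMSO 8 h library. P4HB changed by -0.12 ± 0.0482 at 8 h (limma adjusted p = 0.056) and -0.29 ± 0.0431 at 24 h. HSP90B1, the ER form of HSP90, fell from 44001 ± 1510 (SD, n = 2) to 34742 ± 1410 (SD, n = 3) normalised counts at 8 h, a change of -0.34 ± 0.0554, and changed by -0.19 ± 0.0496 at 24 h. CRELD2, an ER stress protein of the lumen, changed by -0.36 ± 0.0756 and -0.41 ± 0.0676.

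Among the 8 ERAD genes, 3 fell and 1 rose at 8 h (37.5% and 12.5%, against 21.4% and 22.9% of all genes, median 0.01). At 24 h 4 fell and none rose (50.0% fell, against 26.2% of all genes, of which 24.7% rose, median -0.18). At an unadjusted limma p under 0.05 there were 4 at 24 h, all lower. ERAD draws misfolded proteins back to the cytosol for the proteasome. SYVN1 (chr11:65121780-65134533) encodes HRD1, the ubiquitin ligase at the centre of the retrotranslocation complex. At 8 h it stood at 4848 and 4010 normalised counts with DMSO and at 2034, 2106 and 2188 with AU-15330. The libraries of 24 h stood at 5404, 5326 and 5035 against 2172, 2272 and 2199. The treated libraries lay far below the DMSO libraries and close to each other at both times. SYVN1 was 51.5% lower at 8 h (-1.04 ± 0.0723, limma adjusted p = 1.28e-06) and 57.2% lower at 24 h (-1.22 ± 0.0647, adjusted p = 5.9e-08). The difference of -0.18 ± 0.097 did not pass (adjusted p = 0.168), and it was -0.32 and passed without DMSO 8 h replicate 1 (adjusted p = 0.0165).

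SEL1L, the adaptor that holds HRD1 in its complex, fell by 0.30 ± 0.0646 at 8 h and 0.33 ± 0.0578 at 24 h. The EDEM proteins trim mannose from misfolded glycoproteins and mark them for ERAD, and their 3 genes differed. EDEM1 changed by -0.60 ± 0.0473 at 8 h and -0.67 ± 0.0423 at 24 h, and EDEM2 did not pass at either time (0.09 ± 0.0707 and -0.02 ± 0.0633). EDEM3 (chr1:184690231-184754913) gave 5069 and 5193 normalised counts with DMSO and 4133, 5386 and 5206 with AU-15330 at 8 h. By 24 h it gave 5344, 4866 and 4681 against 3355, 3082 and 2962. Only AU-15330 8 h replicate 1 was low among the 5 libraries of 8 h, whereas all treated libraries were low at 24 h. EDEM3 changed by -0.07 ± 0.101 at 8 h (limma adjusted p = 0.599) and -0.65 ± 0.0908 at 24 h (adjusted p = 0.000145), and the difference was -0.58 ± 0.136 (adjusted p = 0.0167), which did not pass without DMSO 8 h replicate 1 (-0.56, adjusted p = 0.0587).

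HERPUD1, a membrane scaffold of the HRD1 complex that is rapidly raised by ER stress, did not pass at 8 h (0.11 ± 0.0789) or at 24 h (0.10 ± 0.0705). DERL2, a retrotranslocation factor, did not pass either (0.09 ± 0.0805 and 0.06 ± 0.072). Its relative DERL1 rose at 8 h (0.19 ± 0.0462, limma adjusted p = 0.00584) and did not pass at 24 h (-0.04 ± 0.0413).

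Of the 10 translocon genes, 5 fell and 2 rose at 8 h (median -0.12), and 7 fell and 1 rose at 24 h (median -0.31). Over all genes 21.4% fell and 22.9% rose at 8 h, and 26.2% fell and 24.7% rose at 24 h. The share of translocon genes that rose at 8 h was thus near that of all genes. The channel is built from SEC61A1, SEC61B and SEC61G. SEC61B changed by -0.26 ± 0.0489 at 8 h and -0.60 ± 0.0437 at 24 h. SEC61A1, the pore subunit, did not pass at 8 h (-0.02 ± 0.0577) and changed by -0.33 ± 0.0517 at 24 h, and SEC61G likewise gave -0.03 ± 0.0602 and -0.28 ± 0.0539.

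SEC62 (chr3:169966635-169998373) encodes a partner of the channel that helps small proteins enter after translation and that also serves as a receptor for turnover of the ER by autophagy. With DMSO it stood at 9592 and 10103 normalised counts at 8 h and at 11247, 11031 and 10280 at 24 h. With AU-15330 it stood at 11544, 11676 and 11994 at 8 h and at 17434, 17411 and 17628 at 24 h. The treated libraries were higher at both times, and the gap at 24 h was the wider. SEC62 rose by 0.25 ± 0.0427 at 8 h (limma adjusted p = 0.000667) and 0.69 ± 0.0382 at 24 h (adjusted p = 5.9e-08), 1.19-fold and 1.61-fold, and the difference was 0.43 ± 0.0573 (adjusted p = 0.000483). SEC63, the J-domain partner of SEC62 that recruits BiP, rose at 8 h (0.22 ± 0.0621, adjusted p = 0.0141) but not without DMSO 8 h replicate 1, and did not pass at 24 h (-0.07 ± 0.0556).

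The translocon-associated protein complex (TRAP), which aids the entry of some signal sequences, is made of the products of SSR1 to SSR4. SSR4 (chrX:153793516-153798505) gave 9013 and 8281 normalised counts with DMSO and 7400, 6988 and 7221 with AU-15330 at 8 h. The values at 24 h were 8354, 8045 and 8111 against 6719, 6762 and 6535. All treated libraries were lower, by a like amount at both times: SSR4 changed by -0.26 ± 0.0446 at 8 h (limma adjusted p = 0.000646) and -0.29 ± 0.0399 at 24 h (adjusted p = 0.000113). SSR1 changed by -0.24 ± 0.0506 and -0.53 ± 0.0453 and SSR3 by -0.23 ± 0.0416 and -0.48 ± 0.0372. SSR2 gave 16585 and 16787 normalised counts with DMSO and 16654 to 16772 with AU-15330 at 8 h, and its log2 changes were 0.00 ± 0.0293 and 0.00 ± 0.0262. TRAM1, a membrane protein beside the channel, changed by -0.21 ± 0.0449 at 8 h and -0.56 ± 0.0401 at 24 h.

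Signal peptidase cuts the signal sequence from proteins as they enter. Of its 4 genes, 2 fell and 1 rose at 8 h (50.0% and 25.0%, against 21.4% and 22.9% of all genes, median -0.09). The share that rose was thus near that of all genes. At 24 h 2 fell and none rose (50.0% fell, against 26.2% of all genes, of which 24.7% rose, median -0.25). At an unadjusted limma p under 0.05 there were 2 at 24 h, both lower. SPCS3 (chr4:176319964-176332245), an accessory subunit, gave 9593 and 10102 normalised counts with DMSO and 7410, 7088 and 7455 with AU-15330 at 8 h. The values at 24 h were 11840, 9932 and 11122 against 7053, 7120 and 8087. Its treated libraries lay below the DMSO libraries at both times, with changes of -0.43 ± 0.0749 (limma adjusted p = 0.00087) and -0.56 ± 0.067 (adjusted p = 3.63e-05).

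SEC11C (chr18:59139477-59158836) encodes a catalytic subunit. It gave 6847 and 7309 normalised counts with DMSO and 6175, 5983 and 6091 with AU-15330 at 8 h. At 24 h it gave 6256, 6648 and 6142 against 4872, 4910 and 4419. The groups did not overlap at either time, and the gap at 8 h was small. SEC11C changed by -0.22 ± 0.0552 at 8 h (limma adjusted p = 0.00674) and by -0.42 ± 0.0494 at 24 h (adjusted p = 3.28e-05), and the 8 h change was -0.17 and did not pass without the second DMSO 8 h library (adjusted p = 0.0716). SPCS1 rose at 8 h (0.17 ± 0.0523, limma adjusted p = 0.0199) and did not pass at 24 h (0.09 ± 0.0468). Its 8 h call was lost without DMSO 8 h replicate 1 or AU-15330 8 h replicate 3, and when only the 8 h groups were fitted. SPCS2 did not pass at either time (0.03 ± 0.0465 and -0.08 ± 0.0416).

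None of the 5 oligosaccharyltransferase genes passed the limma test at 8 h, and none had an unadjusted p under 0.05 (0 of 5). Their log2 changes ran from -0.08 to 0.08. Over all genes 22.9% rose and 21.4% fell at 8 h. At 24 h, 2 of 5 fell (40.0%, against 26.2% of all genes, median -0.11). RPN1 (chr3:128619970-128681075), which encodes the subunit ribophorin I, gave 13240 and 12377 normalised counts with DMSO and 13566, 13264 and 13731 with AU-15330 at 8 h. At 24 h it gave 15029, 14442 and 14005 against 12355, 13095 and 12978. The treated libraries were the higher at 8 h by a narrow margin and the lower at 24 h. RPN1 changed by 0.08 ± 0.0437 (limma adjusted p = 0.174) and then -0.18 ± 0.0391 (adjusted p = 0.00281). The difference of -0.26 ± 0.0586 passed (adjusted p = 0.013), but not without the second DMSO 8 h library (-0.21, adjusted p = 0.0581). STT3A, a catalytic subunit, did not pass at 8 h (-0.08 ± 0.109) and fell at 24 h (-0.37 ± 0.0971, adjusted p = 0.00735), with 6426, 5809 and 6139 normalised counts against 4160, 4440 and 5668, where AU-15330 24 h replicate 3 was close to DMSO. RPN2, DDOST and OSTC, which encode further subunits, did not pass at 24 h (-0.10 ± 0.0492, -0.01 ± 0.045 and -0.11 ± 0.0787).

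The groups of genes can be set side by side by the median of their members in each library, taken relative to the mean of DMSO 8 h. For the 46 genes that median was -0.14, -0.09 and -0.08 in the AU-15330 8 h libraries, 0.20, 0.13 and 0.13 in the DMSO 24 h libraries and -0.11, -0.12 and -0.11 in the AU-15330 24 h libraries. Within each time the treated libraries lay below the DMSO libraries. The same held for the sensors, chaperones, translocon and signal peptidase genes. In the ERAD and oligosaccharyltransferase genes the treated and DMSO libraries of 8 h overlapped and those of 24 h did not, with AU-15330 8 h replicate 3 (0.03) above both DMSO libraries in ERAD. Differences between these groups of genes were not tested.

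**Figure D4:**
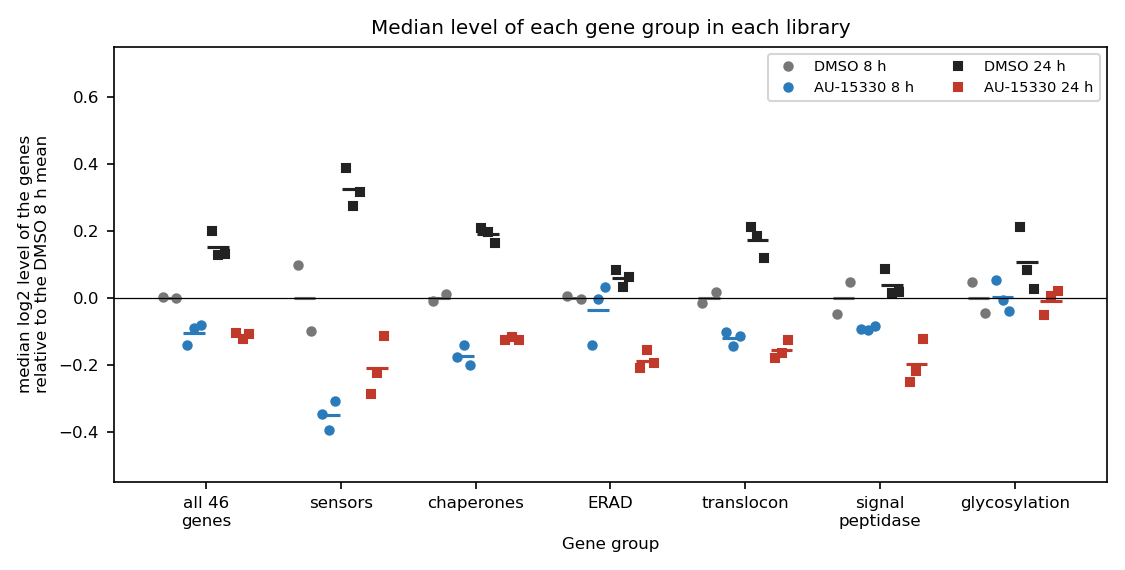
Median over the genes of each group of log2(normalised count + 60), relative to the mean of the DMSO 8 h libraries, with 1 point per library and a line at the group mean. The DMSO 24 h points of all 46 genes lie between 0.13 and 0.20 and the AU-15330 24 h points between -0.12 and -0.11.

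The change of the effect between the times was tested as the difference of the log2 changes, 24 h minus 8 h. It passed the test and was below 0 in 13 of the 46 genes (28.3%, against 11% of all 12721 genes and 14.8% of the 7624). It passed and was above 0 in 3 (6.52%, against 7.54% and 6.39%), and 30 did not pass. The 3 were EIF2AK3, SEC62 and HSPA5, the first pair with higher log2 changes at 24 h and HSPA5 with a smaller fall. Of the 10 translocon genes 6 were among the 13: SEC61A1, SEC61B, SEC63, TRAM1, SSR1 and SSR3, with differences from -0.35 to -0.25. The others were CREB3L2, SDF2L1, DNAJC3, MANF, EDEM3, DERL1 and RPN1. With quantile normalisation 6 passed below and 3 above 0. The calls of DNAJC3, DERL1, SEC61A1, SEC63, SSR1, SSR3 and RPN1 were then lost. Of the 6 translocon genes only SEC61B and TRAM1 kept theirs. The calls of SDF2L1, DNAJC3, DERL1 and SEC63 were each lost when any of several single libraries was left out, and those of SEC61A1 and SSR1 were lost without the second DMSO 8 h library.

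Both controls hold DMSO only, and their comparison shows how the genes differed between the 24 h and the 8 h batch without the degrader. In DMSO at 24 h, 20 of the 46 genes were higher than at 8 h (43.5%, against 6.56% of all genes and 7.84% of the 7624), none was lower (against 3.56% and 4.38%) and 26 did not pass, with a median log2 difference of 0.14. At an unadjusted limma p under 0.05 there were 27, of which 3 were lower. HSPA5 was higher by 0.53 ± 0.0313 (limma adjusted p = 2.88e-06), CREB3L2 by 0.51 ± 0.0561, HERPUD1 by 0.48 ± 0.0789 and EIF2AK3 by 0.45 ± 0.0896. By role, 2 of 4 sensors, 8 of 15 chaperones, 3 of 8 ERAD genes, 6 of 10 translocon genes and 1 of 5 oligosaccharyltransferase genes were higher. None of the 4 signal peptidase genes passed the test. ERN1 was at -0.56 ± 0.173 (adjusted p = 0.0552). The count of 20 rested on single libraries: it was 8 without the second DMSO 8 h library, 13 without DMSO 8 h replicate 1, 10 without DMSO 24 h replicate 1 and 12 without DMSO 24 h replicate 2.

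Other genes of the same pathways were counted from lists of known roles. Each count can be read against the shares over all genes, of which 22.9% rose and 21.4% fell at 8 h and 24.7% rose and 26.2% fell at 24 h, and differences between lists were not tested. Of 11 transcription factors and processing enzymes of the unfolded protein response, 6 rose and 1 fell at 8 h (54.5% and 9.09%), and 3 rose and 1 fell at 24 h (27.3% and 9.09%), so that the share that rose was near that of all genes at 24 h. The gene that fell was XBP1, the transcription factor made by IRE1 splicing, with 4582 ± 166 (SD, n = 2) normalised counts with DMSO and 2725 ± 108 (SD, n = 3) with AU-15330 at 8 h (-0.74 ± 0.0573, limma adjusted p = 2.27e-06), and 5990 ± 241 against 3334 ± 169 (SD, n = 3 each) at 24 h (-0.83 ± 0.0513, adjusted p = 1.14e-07). The files give gene totals, so spliced and unspliced XBP1 mRNA cannot be told apart. NFYC, a subunit of NF-Y, rose by 0.50 ± 0.0452 and 0.23 ± 0.0404.

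Downstream of PERK, ATF4 rose by 0.20 ± 0.0372 at 8 h (limma adjusted p = 0.00102) and did not pass at 24 h (0.04 ± 0.0333). Of 10 other genes of that branch, 4 rose and 4 fell at 8 h (40.0% each), and 2 rose and 3 fell at 24 h (20% and 30.0%, near the shares of all genes). DDIT3, which encodes the factor CHOP, changed by -0.29 ± 0.0954 at 8 h (adjusted p = 0.0407) and did not pass at 24 h (0.01 ± 0.0853). TRIB3, a pseudokinase induced by ATF4 and CHOP, changed by -0.86 ± 0.0912 and -0.64 ± 0.0816, while ASNS, which makes asparagine, changed by 0.51 ± 0.0583 and 0.69 ± 0.0521.

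Among 21 other folding enzymes, 6 rose and 5 fell at 8 h (28.6% and 23.8%, near the shares of all genes) and 1 rose and 7 fell at 24 h (4.76% and 33.3%). The smallest p belonged to MZB1, a BiP cofactor for immunoglobulin assembly in B cells, which changed by -1.89 ± 0.0659 and -1.30 ± 0.0589. FKBP11, a prolyl isomerase, changed by -0.39 ± 0.0592 at 8 h, and TXNDC5, a disulfide isomerase, by -0.50 ± 0.0299 at 24 h. Of 21 other ERAD genes 8 rose and 2 fell at 8 h (38.1% and 9.52%), and 9 rose and 1 fell at 24 h (42.9% and 4.76%). Those with the smallest p at 8 h were UBE2J2 (0.42 ± 0.0721) and AUP1 (0.27 ± 0.0484), and MAN1B1, a mannosidase, changed by 0.77 ± 0.151 at 24 h.

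Of 22 other genes of targeting and translocation, 6 rose and 5 fell at 8 h (27.3% and 22.7%) and 4 rose and 7 fell at 24 h (18.2% and 31.8%), all near the shares of all genes. SERP1, a translocon protein raised by ER stress, changed by -0.35 ± 0.042 and -0.61 ± 0.0376. TRAM2, a relative of TRAM1, changed by -0.45 ± 0.0579 at 8 h, and SRP9, of the signal recognition particle, by -0.30 ± 0.0317 at 24 h. Of 28 other N-glycosylation genes 6 rose and 2 fell at 8 h (21.4% and 7.14%), and 8 rose and 3 fell at 24 h (28.6% and 10.7%), so that the shares that rose were near those of all genes. ALG2, a mannosyltransferase, and MAGT1, an oligosaccharyltransferase subunit, fell at both times (-0.66 ± 0.0588 and -0.51 ± 0.0526, and -0.49 ± 0.0508 and -0.50 ± 0.0455).

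The labelled cell type was checked by its markers. All 11 B cell markers were tested and their summed level was 5320 to 7200 CPM (counts scaled to a common library size) in every library. It was 6740 to 6770 in DMSO and 5670 to 5950 in AU-15330 at 8 h, and 7020 to 7200 and 5320 to 5530 at 24 h, and 7 markers fell and 1 rose at 8 h (63.6% and 9.09%), and 8 fell and 2 rose at 24 h (72.7% and 18.2%). Those that rose, named after their values were seen, were CD37 (0.86 and 1.13) and, at 24 h, SOX11 (1.15). The summed level of 9 plasma cell markers, which include XBP1, MZB1 and FKBP11, was 2250 to 2360 CPM in DMSO and 1690 to 1910 in AU-15330 at 8 h, and 2860 to 2990 and 1880 to 2010 at 24 h, and 5 of 9 fell at 8 h and 6 at 24 h (55.6% and 66.7%). Over all genes 22.9% rose and 21.4% fell at 8 h, and 24.7% rose and 26.2% fell at 24 h. At each time 2 of the 9 plasma cell markers rose (22.2%, near the share of all genes). They were PRDM1, a regulator of plasma cell identity, at both times (1.25 and 1.13), IRF4 at 8 h (0.39) and SDC1 at 24 h (0.32), also named after their values were seen. IRF4 was among the markers that fell at 24 h (-0.71 ± 0.0322, limma adjusted p = 1.73e-08). The summed levels of both lists moved with the falls above, and their part in them was not tested. Of 6 T cell markers 1 passed the filter (CD3G, which fell at both times), and their sum was 13.4 to 14.3 CPM in DMSO and 2.12 to 5.82 in AU-15330. The 3 myeloid markers with an entry summed to at most 1.25 CPM and the 3 erythroid and platelet markers to at most 0.707 CPM.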

How the data were processed

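RNA of 12 Z138 samples was sequenced as 50 bp reads. Per the labels' protocols, libraries came from a TruSeq poly(A) kit or a TruSeq stranded kit with ribosomal RNA removal, and the labels do not tie a kit to a sample. Per the submitters' processing notes, the authors named kallisto 0.46.1, the genome build GRCh38.p13, Trimmomatic 0.40, DESeq2 1.24.0, FastQC 0.11.9 and R 4.3.2, with no order or role. The deposited values are log2 numbers with a floor of 10.36053 in every library and a highest value of 20.152, which is the form of a variance-stabilising transform of normalised counts.

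From these, normalised counts were recovered by inverting that transform (59.4 equal 1 CPM on average). Between 54.2% and 56.3% of low values lay within 0.02 of a whole read, so no count model was run. Depth was 50741267 to 67580769 estimated counts. Of 12 value columns, 2 carried the same name and identical values and counted as 1 library, so 1 column was not used.

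Of 20318 entries, the 12721 that reached 1 CPM in 3 or more libraries were fitted with limma 3.58.1 (R 4.3.3) on the deposited scale, 4 group means, 7 residual degrees of freedom and a trended prior. Log2 changes and SEs came from log2(normalised count + 60), because a doubling on the deposited scale is 0.163 at 100, 0.461 at 1000 and 0.852 at 10000 normalised counts. Named with every library are HSPA5, the 3 stress sensors and, in each group of genes, the gene with the smallest p at 8 h, at 24 h and for the difference. From other lists come the 2 with the smallest p at each time, and XBP1, ATF4 and DDIT3, and 1 gene that this rule names is not reported here. The genes and lists were chosen with earlier results of these data known. Alternatives changed the scaling, the scale, the filter, the prior, the replicate block, the libraries and the entries of repeated symbols. Gene positions are those of GENCODE 29 (GRCh38).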

Additional observations from a re-analysis of the deposited data

Results flagged for a closer look

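For 16 of the 46 genes the effect of AU-15330 at 24 h differed from that at 8 h by the limma test of the difference itself, with an adjusted p under 0.05. Given as the log2 change at 24 h minus that at 8 h, the difference was above 0 for the PERK gene EIF2AK3 (0.53), for SEC62 (0.43) and for HSPA5 (0.18). Among sensors and chaperones it was below 0 for CREB3L2 (-0.43), DNAJC3 (-0.32), SDF2L1 (-0.29) and MANF (-0.27). In ERAD it was -0.58 for EDEM3 and -0.23 for DERL1. In the translocon it was -0.35 for TRAM1, -0.34 for SEC61B, -0.31 for SEC61A1, -0.29 for SEC63, -0.29 for SSR1 and -0.25 for SSR3. For the oligosaccharyltransferase gene RPN1 it was -0.26. The difference passed above 0 in 3 of the 46 genes (6.52%, near the 7.54% of all genes). It passed below 0 in 13 (28.3%, against 11% of all genes). With quantile normalisation 7 of the 16 calls were lost. The calls of SDF2L1, DNAJC3, DERL1 and SEC63 were also each lost when any of several single libraries was left out. Each time point is a batch of its own in the labels, and the DMSO libraries differ between them as well.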

How the results depend on the processing

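No call of the 46 genes changed direction under any alternative. Of 502 recomputed counts and medians 451 stayed within the spread between replicates or 1.5 times the count, and of 884 recomputed values of named genes 874 kept their direction and side of the threshold. The cause of the changes was not tested. With quantile normalisation the genes higher at 24 h were 4, those with a lower difference 6, and those lower in DMSO at 24 h 1, as also with a filter of at least 5 CPM. Medians at 8 h became -0.20 (chaperones), -0.15 (translocon) and -0.14 (signal peptidase). At 24 h the median of all 46 was -0.23 with quantile normalisation, -0.26 with library medians centred and -0.23 with log2(CPM + 1) or log2(CPM + 5). In that order the chaperones were at -0.23, -0.29, -0.26 and -0.26 and the translocon at -0.25, -0.28, -0.26 and -0.25. Leaving out the centring, ERAD was at -0.14, -0.13 and -0.13, signal peptidase at -0.21, -0.20 and -0.19, and glycosylation at -0.05 each time, and the sensors were at -0.44 with log2(CPM + 5). The RPN1 difference was -0.15 with quantile normalisation (limma adjusted p = 0.106). At 24 h DNAJB11 did not pass and SPCS1 passed with quantile normalisation and both CPM scales, and P4HB passed at 8 h with both CPM scales.

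With 1 library left out, medians at 8 h ranged from -0.14 to -0.07 (all), -0.42 to -0.25 (sensors), -0.21 to -0.15 (chaperones), -0.04 to 0.03 (ERAD), -0.16 to -0.11 (translocon) and -0.15 to -0.04 (signal peptidase), and at 24 h from -0.34 to -0.28 (chaperones) and -0.19 to -0.08 (glycosylation). Genes higher in DMSO at 24 h ranged from 8 to 20, and lower from 0 to 1. A DMSO group left with 1 library is assumed to vary like the others.

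Deviations of same-numbered libraries were weakly correlated (r from -0.043 to 0.134, median 0.047, over 12 pairs, 1 over 0.1). Over 24 pairs with other numbers r ran from -0.1 to 0.07 (median -0.034). Whether the numbers pair the libraries is not settled by these values. With the replicate block, 8 h and 24 h lost and gained 0 calls, the 8 h chaperone median was -0.14, and the difference lost SDF2L1 and DNAJC3. The comparison of DMSO at 24 h against 8 h then lost 7 calls and gained 1. Over the alternatives with no library left out, genes higher in DMSO at 24 h ranged from 14 to 20. With the block and, chosen after seeing the data, the second DMSO 8 h library as replicate 3, genes lower in DMSO at 24 h were 1. Summed entries of repeated symbols, also added after seeing the data, changed no call.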

Other observations

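Genes of ER exit, which load cargo into COPII vesicles or return ER residents from the Golgi, were counted in the same way. Of 20 tested, 4 rose and 2 fell at 8 h (20% and 10.0%, against 22.9% and 21.4% of all genes, median 0.03), and 2 rose and 9 fell at 24 h (10.0% and 45.0%, against 24.7% and 26.2%, median -0.11). At 8 h the smallest p belonged to the coat gene SEC24B and the cargo receptor gene MCFD2, which both rose (0.32 ± 0.0544 and 0.32 ± 0.0553). At 24 h it belonged to the cargo receptor genes TMED2 (-0.20 ± 0.0307, limma adjusted p = 0.000279) and TMED10 (-0.34 ± 0.0536, adjusted p = 0.000296).

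As a description over 11 libraries that share 4 groups, the genes outside the set whose deposited values followed those of HSPA5 most closely were FHL1 (Pearson r = 0.992), IKZF1 (0.992) and TOP2B (0.991). For ERN1 they were MAVS (0.973), ELL3 (0.972) and TMEM179B (0.969). With groups standing apart, such values mostly describe the group means.

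Markers of stroma, epithelium and endothelium summed to 18.2 to 23.3 CPM in DMSO and 6.31 to 9.74 in AU-15330 at 8 h, and to 26.3 to 33.4 and 4.54 to 5.64 at 24 h, and COL1A1 fell at both times (-1.59 ± 0.293 and -2.83 ± 0.262). Their part in the changes of the ER genes was not tested.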
